A study of Mus musculus with 4 samples.

Results

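The 9 genes described here, Pum2, Rc3h1, Rc3h2, Zc3h12a, Zc3h12c, Cpeb2, Cpeb3, Cpeb4 and Msi2, encode Pumilio, Roquin, Regnase, CPEB and Musashi proteins. They were taken by gene symbol, and every probe set that the platform annotation paired with one of these symbols alone was kept. This gave 11 probe sets for 9 genes, out of 35556 probe sets and 19938 genes with a single symbol. Zc3h12c and Rc3h1 each had 2 probe sets, and the other genes had 1.

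All 5 families bind mRNA by sequence or shape, mostly in the untranslated region after the coding sequence, and set how long the message lasts or how well it is translated. Pumilio proteins recognise a short UGUA-containing element and recruit the CCR4-NOT deadenylase. Roquins bind stem-loops and recruit the same complex, and Regnases are endoribonucleases that cut stem-loops in inflammatory mRNAs. CPEB proteins bind uridine-rich elements and shorten or lengthen the poly(A) tail, and Musashi proteins repress or promote translation of mRNAs with UAG-containing elements. In blood formation, Musashi-2 is known for its part in stem cell self-renewal and CPEB4 for translational control in late erythroid maturation.

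The arrays held RNA recovered by immunoprecipitation from early erythroid progenitors of C57BL/6 mouse fetal liver at E14.5. The cells of both groups had been depleted of lineage-positive, Sca-1, CD16/32, CD41 and CD34 cells and sorted for c-Kit with low CD71. In the IgG group, 2 arrays carried RNA from a mock immunoprecipitation with control rabbit IgG, and in the RBP group 2 arrays carried RNA captured by an antibody to an RNA-binding protein. No gene was altered in either group. The labels do not name this protein. It is taken to be ZFP36L2, a tristetraprolin-family protein that binds AU-rich elements, as recalled from the study's publication, and the antibody's target was not checked. Whether arrays of one group hold separate cell preparations is not in the labels, and p-values then measure a spread that may be technical. No array of input RNA was analysed here, so the amount of an mRNA in a lysate and its recovery by an antibody cannot be told apart.

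Levels are log2 values per probe set, and a difference is the RBP mean minus the IgG mean on that scale. The RBP arrays had a wider spread of gene levels than the IgG arrays, with interquartile ranges of 3.63 and 3.55 against 2.69 and 2.69. Over all probe sets the medians were 5.57 and 5.62 on the RBP arrays and 5.85 and 5.93 on the IgG arrays. The deposited values thus did not share a common distribution, and the test described below used them without rescaling. Why the groups differed in scale was not tested. The 95th percentile of 1244 chemosensory receptor genes, genes of smell and taste, was 5.36 and served as the background level. Of 7 erythroid progenitor markers measured, all 7 were above it on all 4 arrays, among them Kit, Gata1, Epor and Klf1. Markers of other cells were above it on all arrays for 2 of 4 hepatocyte genes, 2 of 5 macrophage genes, 2 of 4 megakaryocyte genes, 3 of 5 granulocyte and mast cell genes, 2 of 3 lymphoid genes and 4 of 4 endothelial and stromal genes. Of these 25 genes 1 rose and 2 fell in the test described below, and of the 7 erythroid markers 3 rose and 0 fell. Over all genes 23.8% rose and 6.54% fell. The part of other cells in the results below was not tested. The mRNA of Zfp36l2 stood at 11.26 and 11.31 with IgG and at 12.22 and 11.87 with the RBP antibody.

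The comparison of RBP with IgG arrays asked which mRNAs the antibody recovered beyond control IgG. Of the 9 genes, 5 were higher on the RBP arrays and 4 did not pass by limma's moderated test at an adjusted p under 0.05. None was lower in limma, also at an unadjusted p under 0.05 (0 genes). They were Zc3h12c (2.66-fold), Pum2 (2.36-fold), Cpeb4 (2.01-fold), Rc3h1 (1.56-fold) and Cpeb3, for which no fold is given because both its IgG values lay below background. The same test called 23.8% of all genes higher and 6.54% lower, and 36.5% of genes with a mean level above background were higher. After centring each array on the chemosensory genes, the split over all genes was 35.5% higher and 1.59% lower. The mean over the 4 arrays was above background for all 9, for Cpeb3 only through its RBP arrays, so the shares among genes above background are given as a description. The median difference of the 9 genes was 0.65, against -0.023 over all genes and 0.40 over genes above background. Both RBP arrays lay above both IgG arrays for 7 of the 9, against 37.4% of all genes, and 3 were also at least 2-fold apart, against 13.5%. Among the 12835 genes above background, these counts were 7049 and 2671. An exact two-sided permutation test of 2 arrays against 2 cannot give a p below 0.333, so each call rests on the variance that limma shares across genes.

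**Figure D1:**
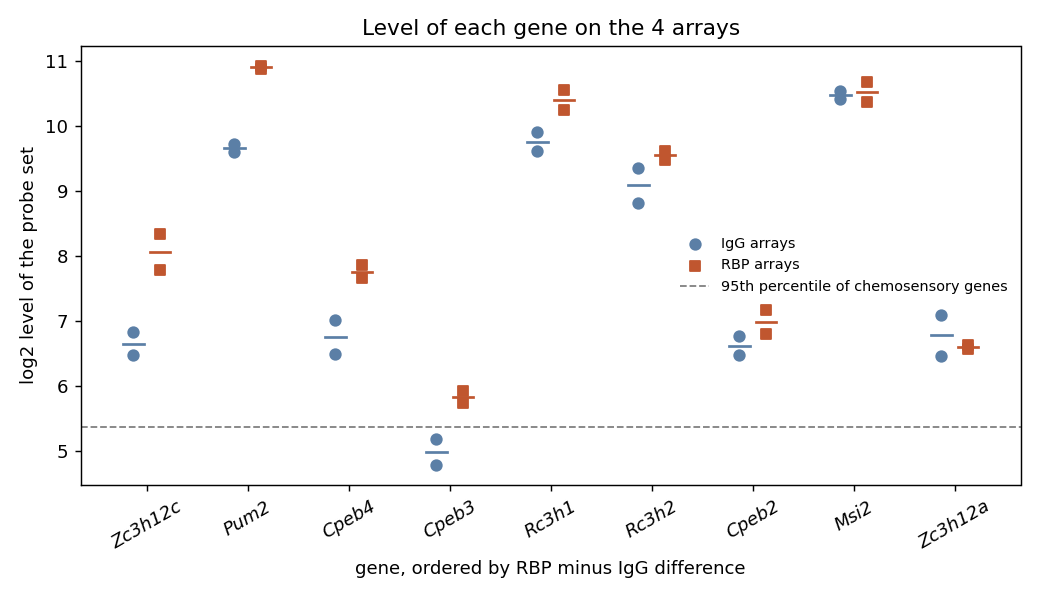
Log2 level of the probe set representing each gene (vertical axis) for the 9 genes (horizontal axis, ordered by difference), with 2 IgG arrays as circles, 2 RBP arrays as squares, group means as short bars and the background level of 5.36 as a dashed line. Circles and squares overlap for Msi2 and Zc3h12a alone, and Cpeb3 has both IgG arrays below the background level; levels of different genes are not comparable.

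Pum2 gave the tightest separation of the 9 genes. Its level was 9.60 and 9.72 with IgG and 10.88 and 10.92 with the RBP antibody. The gap between the groups was far wider than the gap within either. The means were 9.66 ± 0.09 (SD, n = 2) and 10.90 ± 0.03, a difference of 1.24 ± 0.15 (SE; limma, adjusted p = 0.00568). Pum2 encodes a sequence-specific repressor that acts with CCR4-NOT on many mRNAs. Its call held whichever array was left out, with adjusted p up to 0.0403 in limma, and was lost when the trend of differences with level was subtracted (0.59, limma adjusted p = 0.0580).

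The Roquin genes differed less, and one of them passed the test narrowly. Rc3h1 encodes Roquin-1, which limits immune mRNAs through stem-loops. Its level was 9.61 and 9.90 with IgG and 10.25 and 10.55 with the RBP antibody. The lower RBP array was above the higher IgG array. The means of 9.75 ± 0.20 (SD, n = 2) and 10.40 ± 0.22 differed by 0.65 ± 0.19 (SE; limma, adjusted p = 0.0486). A second Rc3h1 probe set read 8.64 and 8.58 on the IgG arrays against 9.47 and 8.63 on the RBP arrays. There RBP array 2 lay between the IgG arrays, and the difference of 0.44 ± 0.29 did not pass (limma, adjusted p = 0.272). The call of Rc3h1 was lost in the fit over all 21789 probe sets (adjusted p = 0.0502), with the mean over its probe sets (0.0532), with quantile normalization (0.368) and without IgG array 1 (0.0958), RBP array 1 (0.122) or RBP array 2 (0.297).

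Rc3h2, which encodes the closely related Roquin-2, stood at 9.35 and 8.81 with IgG and at 9.47 and 9.62 with the RBP antibody. The RBP arrays were higher, but the IgG arrays were farther from each other than the group means were. The difference of 0.46 ± 0.22 did not pass (SE; limma, adjusted p = 0.155), and its 95% interval ran from -0.073 to 1.0. Without IgG array 1 the difference was 0.74 and passed (limma, adjusted p = 0.0240).

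The Regnase genes lay at opposite ends of the group. Zc3h12c encodes Regnase-3, a Regnase known from macrophages. Its level was 6.83 and 6.47 with IgG and 7.79 and 8.33 with the RBP antibody. All 4 values were above background and the groups were well apart. The means of 6.65 ± 0.26 (SD, n = 2) and 8.06 ± 0.38 differed by 1.41 ± 0.24 (SE; limma, adjusted p = 0.0106). Its second probe set read 5.82 and 4.89 with IgG and 7.11 and 7.49 with the RBP antibody. That difference, 1.95 ± 0.33, went the same way (limma over all probe sets, adjusted p = 0.0108), though 1 IgG value was below background and the size is uncertain. Without RBP array 2 the Zc3h12c difference was 1.14 and its call was lost (limma, adjusted p = 0.0514).

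Zc3h12a encodes Regnase-1, the nuclease that cleaves Il6 and other inflammatory mRNAs and also the mRNA of the transferrin receptor. It gave 6.46 and 7.09 with IgG and 6.57 and 6.62 with the RBP antibody. Both RBP values fell between the IgG values. The difference was -0.18 ± 0.23 (SE; limma, adjusted p = 0.564), with a 95% interval from -0.75 to 0.39. The IgG arrays decided its sign. Without IgG array 1 the difference was -0.49 (limma, adjusted p = 0.0499), and without IgG array 2 it was 0.13 (limma, adjusted p = 0.462).

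Of the 3 CPEB genes, Cpeb4 and Cpeb3 rose and Cpeb2 did not pass. Cpeb4 read 7.01 and 6.49 with IgG and 7.85 and 7.66 with the RBP antibody. The spread was wider among the IgG arrays. The means of 6.75 ± 0.36 (SD, n = 2) and 7.76 ± 0.14 differed by 1.0 ± 0.21 (SE; limma, adjusted p = 0.0203). The call was lost without RBP array 1 (0.90, limma adjusted p = 0.119), without RBP array 2 (1.10, limma adjusted p = 0.0671) and with quantile normalization (0.81, limma adjusted p = 0.104).

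Cpeb3 encodes a CPEB protein studied mostly at synapses. Its probe set read 4.78 and 5.17 on the IgG arrays, both under the background level of 5.36, and 5.73 and 5.92 on the RBP arrays. Signal above background was therefore seen on the RBP arrays alone, and the size of the difference is uncertain. It was 0.85 ± 0.19 (SE; limma, adjusted p = 0.0233). Without RBP array 1 or RBP array 2 the differences of 0.94 and 0.76 no longer passed (limma, adjusted p = 0.0907 and 0.143).

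Cpeb2 encodes another member of the same subfamily. Its levels of 6.76 and 6.47 with IgG and 7.16 and 6.79 with the RBP antibody nearly met. The difference of 0.36 ± 0.20 did not pass (SE; limma, adjusted p = 0.204), with a 95% interval from -0.12 to 0.84.

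Msi2 was abundant in both kinds of immunoprecipitate. Its levels were 10.41 and 10.53 with IgG and 10.66 and 10.36 with the RBP antibody. The RBP values lay on either side of the IgG pair. The difference was 0.047 ± 0.17 (SE; limma, adjusted p = 0.845), with a 95% interval from -0.37 to 0.46, so a difference as large as the 1.24 of Pum2 lay outside the interval of Msi2. The direction of so small a difference turned with quantile normalization (-0.21) and without IgG array 1 (-0.012) or RBP array 1 (-0.10).

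**Figure D2:**
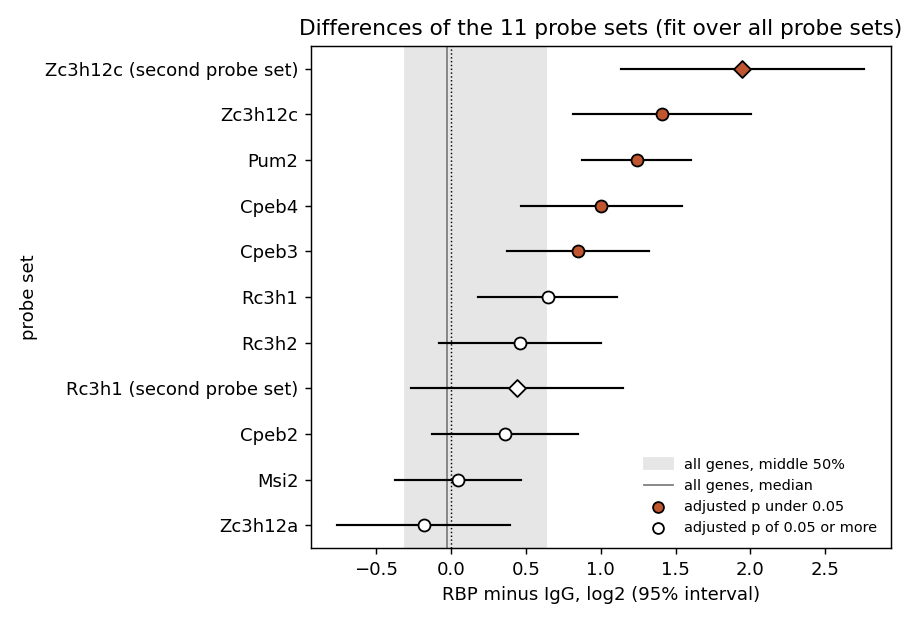
RBP minus IgG difference in log2 (horizontal axis) for each of the 11 probe sets (vertical axis), from limma over all 21789 probe sets with a single symbol, with 95% intervals as lines; filled symbols have an adjusted p under 0.05, diamonds are second probe sets, and the grey band and line are the middle 50% and the median of all genes. The 2 Zc3h12c probe sets lie at 1.41 and 1.95 and the 2 Rc3h1 probe sets at 0.65 and 0.44, and both Rc3h1 symbols are open because this fit gave 0.0502 for the brighter one.

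Within a family, members were also set against each other on each array, which takes out any shift of a whole array. The log2 level of Zc3h12a minus that of Zc3h12c was -0.37 and 0.62 with IgG and -1.22 and -1.71 with the RBP antibody. The change was -1.59, with no overlap between groups, and it kept its direction in the alternatives run. It ran from -2.08 to -1.10 without 1 array, where a change without overlap cannot turn sign. Over all genes taken singly, where shifts of whole arrays remain, the groups did not overlap for 73.7%. A share over pairs of genes is not given here. Cpeb4 minus Cpeb2 was 0.25 and 0.02 with IgG and 0.70 and 0.86 with the RBP antibody, a change of 0.64 with no overlap. The groups overlapped for Cpeb4 minus Cpeb3 (0.15), Cpeb2 minus Cpeb3 (-0.49) and Rc3h1 minus Rc3h2 (0.18). The sizes of the changes against Cpeb3 are uncertain, since it was below background on both IgG arrays. Over these 5 pairs the exact two-sided permutation p was 0.333 at the lowest, the smallest this design allows, and 0.833 after Benjamini-Hochberg adjustment, so no pair passed.

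Differences on these arrays went with level over all genes, and the 9 genes were therefore set against genes of like level. The loess trend of the difference on mean level stood at 0.65 for the level of Pum2, 0.67 for Rc3h1, 0.75 for Rc3h2, 0.62 for Msi2, 0.59 for Zc3h12c, 0.55 for Cpeb4 and -0.22 for Cpeb3. Zc3h12c, Pum2, Cpeb4 and Cpeb3 lay above the trend, Rc3h1 and Cpeb2 lay on it, and Rc3h2, Msi2 and Zc3h12a lay below it. With the trend subtracted, Cpeb3 alone was higher (1.07, limma adjusted p = 0.0287), in a setting that called 5.01% of all genes higher and 5.34% lower. The subtraction raised its difference from 0.85, since the trend at its low level was negative. Both IgG values of Cpeb3 lay below background, so the size of this difference is uncertain. Pum2 then differed by 0.59 (limma, adjusted p = 0.0580), Zc3h12c by 0.82 (0.0843), Cpeb4 by 0.45 (0.237), Rc3h1 by -0.028 (0.941) and Msi2 by -0.57 (0.0889). Pum2 passed when the trend was fitted by least squares (0.72, limma adjusted p = 0.0380, with 5.63% of all genes higher), an alternative added after the data had been seen.

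**Figure D3:**
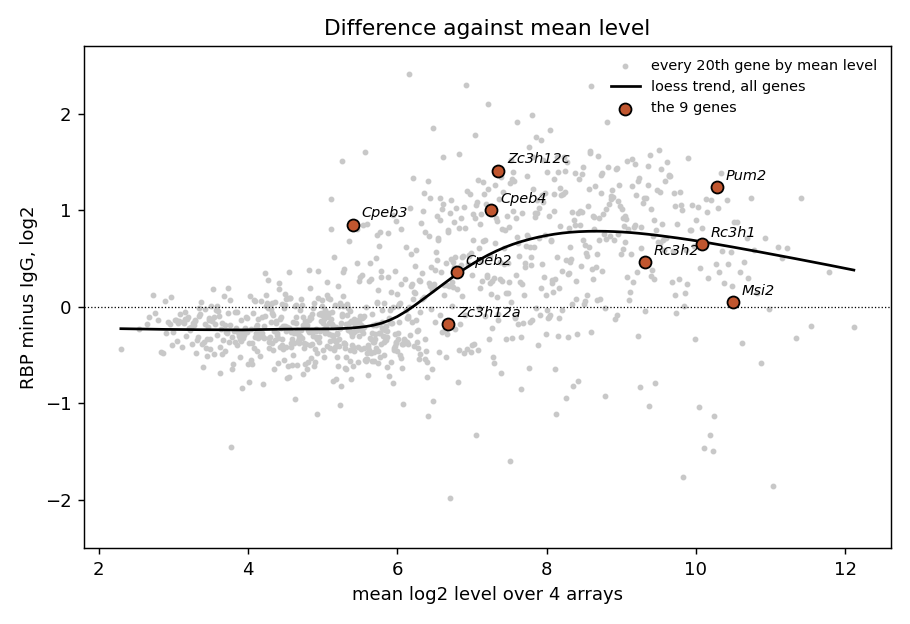
RBP minus IgG difference (vertical axis, log2) against mean log2 level over the 4 arrays (horizontal axis) for every 20th gene by level (grey), with the loess trend over all genes (line) and the 9 genes (filled circles). Pum2, Zc3h12c, Cpeb4 and Cpeb3 lie above the line and Msi2, Rc3h2 and Zc3h12a below it.

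Ranks within an array, which do not change with its scaling, separated some genes and not others. The percentile of Cpeb3 among all genes was 21.5 and 30.6 with IgG and 45.1 and 48.5 with the RBP antibody. Zc3h12c rose from percentiles 63.1 and 58.4 to 68.5 and 75.6, and Cpeb4 from 65.8 and 58.9 to 69.4 and 67.9. Pum2 went from 94.3 and 95.2 to 98.0 and 98.1. Both RBP arrays ranked these 4 genes above both IgG arrays. The share of all genes with such a separation by rank is not given here, and by level it was 37.4%. The percentiles of Rc3h1 overlapped between groups, at 94.5 and 96.0 with IgG and 94.9 and 96.6 with the RBP antibody. Msi2 ranked lower on both RBP arrays, at 97.2 and 95.6 against 97.9 and 98.2. The percentile of Zc3h12a was 56.9 and 68.2 with IgG and 55.6 and 57.0 with the RBP antibody.

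The number of the 9 genes called higher depended on how the arrays were scaled and on each RBP array. It was 3 with quantile normalization (Pum2, Zc3h12c and Cpeb3), which called 11.1% of all genes higher, and 7 after centring on the chemosensory genes, which called 35.5%. Without RBP array 1 it was 2 (Pum2 and Zc3h12c), against 8.65% of all genes, and without RBP array 2 it was 1 (Pum2), against 10.3%. Pum2, Zc3h12c, Cpeb3 and Cpeb4 kept a positive difference in all 13 alternatives run, though most of these could not turn its sign. The filter, the block, the eBayes options and the fit over all probe sets leave a difference as it was. Centring on the chemosensory genes raised every difference by the same amount. Leaving out 1 array cannot turn a difference whose groups do not overlap. Quantile normalization and removal of the level trend could have turned it.

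**Figure D4:**
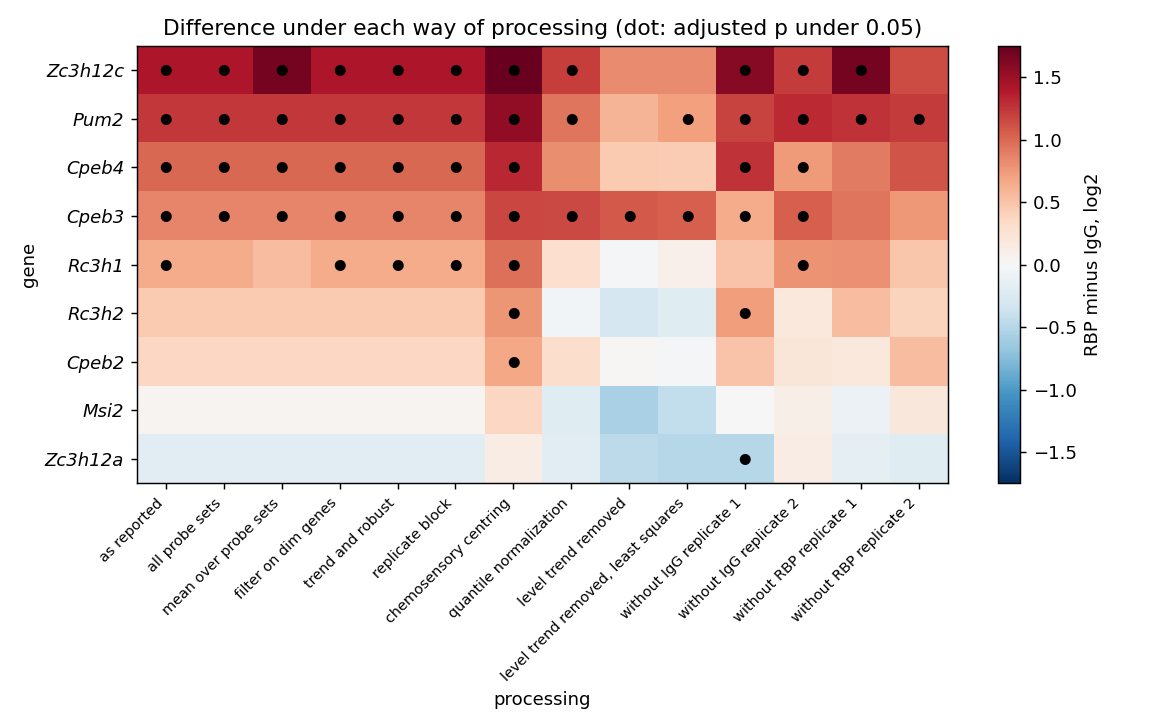
RBP minus IgG difference in log2 (colour) of the 9 genes (rows) as reported and under 13 other ways of processing (columns), with a dot where limma's adjusted p was under 0.05. Dots run across nearly the whole rows of Pum2, Cpeb3 and Zc3h12c, and the row of Msi2 has none.

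Calls among the relatives of the 9 genes were mostly of higher genes. A list of 16 paralogs and other regulators that bind the ends of mRNAs had 15 genes measured, of which 6 were higher, 1 was lower and 8 did not pass, with a median difference of 0.29. Of all genes 23.8% were higher and 6.54% lower. All 6 higher relatives were among the 12 with a mean level above background, where 36.5% of genes were higher. N4bp1, whose protein is a Regnase-like endoribonuclease, differed by 1.61 ± 0.15 (SE; limma, adjusted p = 0.00558), and Khnyn, which encodes another nuclease of that fold, by 1.49 ± 0.16. Mex3c and Mex3d, which encode ubiquitin ligases with RNA-binding KH domains, differed by 1.13 ± 0.15 and 0.91 ± 0.19 (limma, adjusted p = 0.00631 and 0.0188). Both lost their calls with the level trend removed (0.39 and 0.17; limma, adjusted p = 0.149 and 0.625), and Mex3d also with quantile normalization and without RBP array 1. Mex3a and Zc3h12b, a Regnase paralog, did not pass (0.60 and 0.084; limma, adjusted p = 0.0750 and 0.785). Without that array 3 of the list were higher, against 8.65% of all genes. Nanos3, which encodes a germ cell partner of Pumilio, was the gene that fell, by 0.63 ± 0.14 (limma, adjusted p = 0.0250). That call was lost without RBP array 1 or RBP array 2 (limma, adjusted p = 0.179 and 0.182), with quantile normalization (0.153) and after centring on the chemosensory genes (0.141).

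Of the other paralogs, 3 that were picked after their values were seen did not pass. Cpeb1, the founding CPEB of oocytes, read 4.52 and 4.85 with IgG and 4.32 and 4.35 with the RBP antibody, all below background. Msi1, the neural Musashi, read 5.70 and 6.33 against 5.55 and 5.71. Zc3h12d, which encodes Regnase-4, read 6.28 and 6.21 against 5.93 and 5.92. Their adjusted p in limma was 0.168, 0.253 and 0.131. Pum3, which encodes a nucleolar Puf-domain protein and was chosen after its values were seen, differed by 0.87 ± 0.15 (limma, adjusted p = 0.0108).

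The partners of these proteins gave 17 higher genes. They are effectors and cofactors, of which 33 were measured, and 16 did not pass, with a median difference over the list of 0.71. Limma called 0 partners lower, and 1 had a lower mean at an unadjusted p under 0.05. All 33 were above background, where 36.5% of genes were higher. Cpsf2, a subunit of the cleavage and polyadenylation machinery that CPEB proteins use, stood at 8.98 ± 0.02 (SD, n = 2) with IgG and 10.46 ± 0.09 with the RBP antibody, a difference of 1.48 ± 0.14 (SE; limma, adjusted p = 0.00558). Malt1, the protease that cleaves Regnase-1 and Roquins in activated lymphocytes, differed by 1.44 ± 0.17 (limma, adjusted p = 0.00568). The deadenylase gene Cnot8 and the decapping gene Dcp2 led the list, at 1.89 ± 0.18 and 1.88 ± 0.18. Limma called these 4 in all 12 other settings run at gene level. A second Cnot8 probe set differed by 1.04, at a mean level of 5.14, below background, so the size for Cnot8 depends on the probe set. Nufip2, a Roquin cofactor, differed by 0.30 ± 0.14 (limma, adjusted p = 0.157) and Tent2, the poly(A) polymerase that works with CPEB, by -0.38 ± 0.21 (limma, adjusted p = 0.224). The count of higher partners fell to 9 with quantile normalization, which called 11.1% of all genes higher. Without RBP array 1 or RBP array 2 the median difference of the partners was 0.76 and 0.63. With the level trend removed 5 were higher and 5 lower, and the median difference was -0.010. That setting called 5.01% of all genes higher and 5.34% lower.

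The mRNAs reported as targets of these proteins, often in other tissues, gave a share of calls near that of all genes. Of 40 measured, 10 were higher and 1 was lower, which is 25% higher beside 23.8% of all genes, and the median difference was 0.27. By family, 4 of 9 Pumilio targets, 3 of 17 Roquin and Regnase targets, 2 of 6 Musashi targets and 1 of 8 CPEB targets were higher. In the same order, 8, 13, 6 and 4 of these had a mean level above background, so the families differ in how many could be seen. All 10 higher targets were among the 31 above background, where 36.5% of genes were higher. Tnf, a Roquin and Regnase target with AU-rich elements, differed by 1.54 ± 0.32 (SE; limma, adjusted p = 0.0185), and its call was lost without RBP array 2. Tgfbr1, a receptor gene listed for Musashi, differed by 1.43 ± 0.24 (limma, adjusted p = 0.0101). Hmgxb3, listed for Roquin, differed by 1.34 ± 0.15 and E2f3, a Pumilio-regulated cell cycle gene, by 1.30 ± 0.16 (limma, adjusted p = 0.00560 and 0.00581). A second E2f3 probe set differed by 1.92. The call of Tgfbr1 was lost with quantile normalization and without RBP array 1. Nfkbid, which encodes an atypical inhibitor of NF-kappa-B and is listed for Roquin and Regnase, fell by 0.75 ± 0.18 (limma, adjusted p = 0.0281). That call was lost after centring on the chemosensory genes (limma, adjusted p = 0.133) and without RBP array 1 (0.226), RBP array 2 (0.0752) or IgG array 2 (0.0533). Without RBP array 1 or RBP array 2 the median difference of the 40 was 0.12 and 0.32. Centring on the chemosensory genes gave 17 higher and 0 lower, against 35.5% and 1.59% of all genes. With the level trend removed limma called 0 of the 40 higher, with 9 at an unadjusted p under 0.05, and 4 lower. That setting called 5.01% of all genes higher and 5.34% lower.

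**Figure D5:**
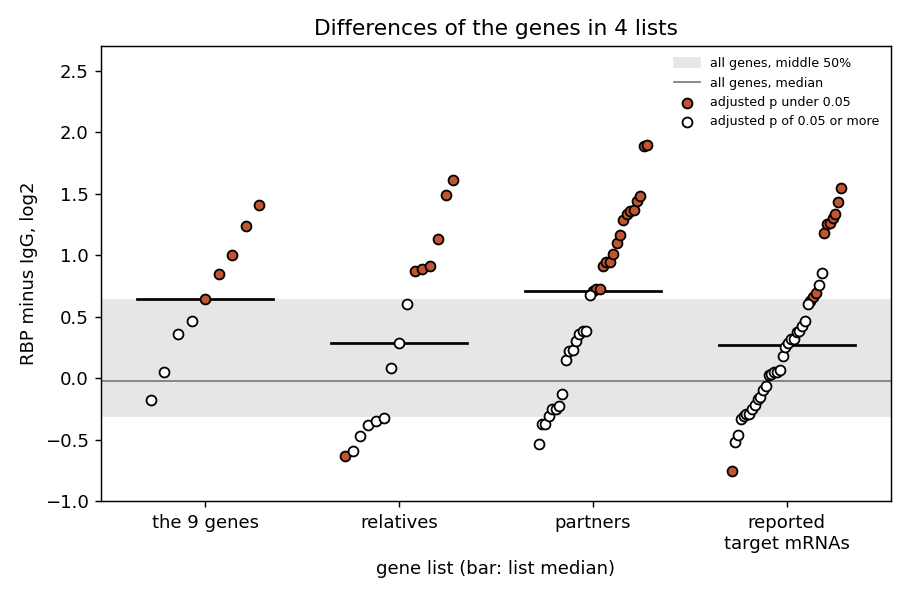
RBP minus IgG difference in log2 (vertical axis) of each gene in 4 lists (horizontal axis): the 9 genes, their relatives, their partners and reported target mRNAs; filled circles have limma's adjusted p under 0.05, black bars are list medians and the grey band and line are the middle 50% and the median of all genes. The list medians are 0.65, 0.29, 0.71 and 0.27.

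The genes most alike over the 4 arrays were looked up for the highest and the lowest of the 9. For Zc3h12c they were Slc35b4, a sugar nucleotide transporter gene, and Pcnx4, with a root mean square distance of 0.04 for both between mean-centred log2 values. Slc35b4 read 7.68 and 7.40 with IgG and 8.71 and 9.18 with the RBP antibody. For Zc3h12a they were Slc2a4rg-ps and Vwa3b, at distances of 0.02 for both. Vwa3b read 7.50 and 8.09 with IgG and 7.60 and 7.68 with the RBP antibody, with IgG array 2 highest as for Zc3h12a. With 4 values per gene and 19938 genes, near matches of this kind describe these arrays only.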

How the data were processed

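The authors deposited log2 levels per probe set, made with RMA in affy, per the submitters' processing notes; the sources used here give neither version nor filter. The log2 unit was read from the values (1.83 to 13.87). Probe sets with 1 gene symbol numbered 21789, with several 1621 and with none in the annotation 12146. Entrez identifiers of 21698 were found in the RefSeq gene table of GRCm38.p6, used for names alone. A gene with several probe sets was represented by the one with the highest mean.

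Differences were tested with limma 3.58.1 in R 4.3.3 (lmFit and eBayes over 19938 genes, two-sided, Benjamini-Hochberg, threshold 0.05; 2 residual and 3.76 prior degrees of freedom), and the code was tested on simulated data. The precision is limited by the number of arrays, with a median standard error of 0.17. The members and lists were chosen with earlier results of these data known. Named from each list were up to 4 called genes with the largest absolute difference, besides the 9 genes, Zfp36l2, and the 2 genes nearest to the highest and the lowest member. Other genes named were chosen after their values were seen. Alternatives were quantile normalization over all probe sets, centring on the chemosensory genes, subtraction of a loess trend (span 0.3; limma's robust loessFit, or least squares, added after seeing the data), a filter at the background level, the mean over probe sets, a fit of every probe set, a block for the replicate number, eBayes with trend and robust options, and leaving out each array. A fit without 1 array assumes that the lone array varies like the other group. Genes of the lists with no single-symbol probe set were not analysed here.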

Additional observations from a re-analysis of the deposited data

How the results depend on the processing

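The eBayes trend and robust options, the replicate block and a filter on dim genes changed no call of the 9 genes, though Cpeb3 passed that filter only through its RBP arrays. The mean over probe sets and the fit over all probe sets changed the call of Rc3h1 alone (0.54, limma adjusted p = 0.0532, and 0.65, 0.0502). Scaling, removal of the level trend and the loss of an array changed more. The signal of Cpeb3 was below background with IgG, which leaves the size of its difference uncertain. Where a value moved, the cause was not tested.

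The median difference of all genes moved from -0.023 to 0.16 with quantile normalization and to 0.29 after centring on the chemosensory genes. Of all genes, limma called 4741 higher and 1304 lower, against 2207 and 553 with quantile normalization, 7074 and 317 after centring, 999 and 1065 with the level trend removed, 1122 and 1014 with that trend fitted by least squares (added after seeing the data), and 1724 to 5153 higher and 99 to 2905 lower without 1 array.

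With quantile normalization 3 of the 9 genes were called higher, with a median of 0.31. Rc3h1 (0.29) and Cpeb4 (0.81) lost their calls, and Rc3h2 (-0.047), Msi2 (-0.21) and the change of Cpeb4 minus Cpeb3 (-0.35) turned sign. Among relatives 0 were lower and the median was 0.37. Of the partners 9 were higher, with a median of 0.26, and 2 reported targets were lower.

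After centring on the chemosensory genes the median of the 9 genes was 0.96. Rc3h2 (0.78, limma adjusted p = 0.0265) and Cpeb2 (0.67, 0.0340) passed, and Zc3h12a turned to 0.13. Among relatives 0 were lower and the median was 0.60, the median of partners was 1.02, and 17 reported targets were higher and 0 lower, with a median of 0.58.

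With the level trend removed 1 of the 9 genes was called higher, and 2 with least squares, with medians of 0.023 and 0.085. Without a call were then Pum2 (0.59), Zc3h12c (0.82, and 0.83 with least squares), Cpeb4 (0.45 in both) and Rc3h1 (-0.028 and 0.085). Rc3h2 (-0.29 and -0.21), Msi2 (-0.57 and -0.44), Cpeb2 with least squares (-0.024) and the change of Cpeb4 minus Cpeb3 (-0.61 and -0.60) turned sign. Relatives gave 2 higher and 0 lower in both, with medians of 0.12 and 0.20. Partners gave 5 higher and 5 lower with a median of -0.010, or 6 and 4 with 0.093. Reported targets gave 0 higher and 4 lower in both, with medians of -0.033 and 0.038.

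Among relatives 2 were lower with dim genes filtered (median 0.73), with the mean over probe sets and with the trend and robust options. In that order, these settings called 7.13%, 6.4% and 8.67% of all genes tested lower. The median of the partners was 0.59 over all probe sets. With the replicate number as a block, limma called 5885 of all genes higher and 2199 lower, and 2 relatives, 1 partner and 2 reported targets lower. The numbers were not treated as pairs, since the labels do not say what they share. The deviations of same-numbered arrays correlated at 0.26 across probe sets with a single symbol, from 2 pairs.

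Without 1 array, 1 to 5 of the 9 genes were higher and 0 to 1 lower. The differences ran from 0.49 to 0.80 for Rc3h1, 0.19 to 0.74 for Rc3h2, -0.49 to 0.13 for Zc3h12a, 1.14 to 1.68 for Zc3h12c, 0.65 to 1.05 for Cpeb3, 0.75 to 1.26 for Cpeb4 and -0.10 to 0.20 for Msi2. The change of Rc3h1 minus Rc3h2 ran from -0.23 to 0.60 and that of Cpeb4 minus Cpeb3 from -0.30 to 0.61. Relatives gave 3 to 6 higher and 0 to 4 lower (medians 0.13 to 0.44), partners 7 to 18 higher and 0 to 1 lower, and reported targets 5 to 11 higher and 0 to 2 lower.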

Other observations

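With the level trend subtracted, the partners divided, a split chosen after its values were seen. Of 33, 5 were higher and 5 lower, in a setting that called 5.01% of all genes higher and 5.34% lower. The higher ones were Cnot8 (1.36), Dcp2 (1.10), Malt1 (0.93), Cnot1, the scaffold of CCR4-NOT (0.82), and Cpsf2 (0.76). The lower ones were Cnot4, a ubiquitin ligase bound to CCR4-NOT (-1.02), Cnot6l and Cnot7, which like Cnot8 encode deadenylases of that complex (-0.99 and -0.89), Tent2 (-0.98) and the cap-binding Eif4e (-0.90). Without that subtraction the latter 5 differed by -0.38 to -0.13 and none passed limma's test.

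Of the 40 reported target mRNAs, 4 were lower in that setting, against 5.34% of all genes. They were Nfkbid (-1.18), Rel (-0.99), Nfkbiz (-0.95) and Xbp1 (-0.88). Before the subtraction Nfkbid was also lower, while Rel (-0.22), Nfkbiz (-0.46) and Xbp1 (-0.098) did not pass limma's test.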
